A study of Mus musculus with 6 samples.

Results

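Laminins, nidogens and perlecan were followed across stroke-injured mouse cortex through 10 genes, selected by symbol from the 24421 in the deposited count table: the laminin chain genes Lama1, Lama2, Lama4, Lama5, Lamb1, Lamb2 and Lamc1, the nidogen genes Nid1 and Nid2, and the perlecan gene Hspg2. All 10 were in the table and all 10 passed the filter on low counts. The samples were 3 from NeuroD1_MCAO mice, which were given NeuroD1, a proneural transcription factor, and 3 from GFP_MCAO mice, which were given green fluorescent protein as the control. All 6 samples were brain cortex of C57BL/6 mice that had undergone MCAO, occlusion of the middle cerebral artery to model ischaemic stroke, and were measured by bulk RNA sequencing of total RNA. The sources used here give neither the vector and its promoter nor the time after stroke, and no age or sex, and no uninjured cortex was analysed here. Whether each sample is a different mouse is not stated in the labels, so the p-values below describe the spread among samples, some of which may be technical.

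Basement membranes are thin matrix sheets that wrap brain blood vessels and line the brain surface. Their framework is laminin, a heterotrimer of an alpha, a beta and a gamma chain, in which the alpha chain carries the sites that bind cell receptors. Nidogens bind the laminin gamma chain encoded by Lamc1 and link laminin to collagen IV and to perlecan, a large heparan sulfate proteoglycan. In brain vessels the chains encoded by Lama4 and Lama5 belong to the basement membrane made by endothelial cells, and those encoded by Lama1 and Lama2 to the outer membrane towards meningeal cells and astrocytes.

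Libraries held 10843273 to 13440244 counts in the NeuroD1 group and 7753101 to 9698795 in the GFP group, so depth and treatment cannot be told apart, although counts thinned to the smallest library gave the same number of members on each side. Neurod1 had 151 to 644 counts in the NeuroD1 libraries and 29 to 64 in the GFP libraries. Levels are CPM: counts divided by the TMM-scaled size of their library. The cortical neuron markers Snap25 (1281.8 ± 521.9 CPM with NeuroD1, 1340.4 ± 461.2 with GFP; SD, n = 3 each) and Slc17a7 (1137.1 ± 747.6 and 1036.0 ± 211.1 CPM) were well detected. NeuroD1 replicate 2 stood apart, with the lowest Neurod1 count among NeuroD1 libraries, the lowest summed neuron markers (1985 CPM, against 2892 to 6003 in the other libraries) and the highest summed fibroblast markers (8565 CPM, against 1140 to 3891). GFP replicate 2 had 7.25% of its counts on the ribosomal RNA precursor Rn45s, against 0.22 to 1.22% elsewhere.

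Of the 10 members, 6 were higher and 1 was lower in NeuroD1 cortex at an unadjusted p under 0.05 by edgeR's quasi-likelihood test, and 0 passed after Benjamini-Hochberg adjustment over all 14852 tested genes. The higher members were Nid1, Lamb1, Nid2, Lama1, Lama2 and Lamc1, from 1.68-fold to 3.16-fold, and the lower was Lama5, at 2.33-fold. Lama4, Lamb2 and Hspg2 did not pass even the unadjusted threshold. Of all tested genes 12.5% were higher and 11.5% lower at that threshold, and 0% passed after adjustment. The smallest adjusted p of the fit was 0.136, a tied value shared by 497 genes. The median log2 fold change was 0.81 over the members and 0.02 over all tested genes. Groups were apart in 4 members on the higher side and 1 on the lower, against 14.2% and 15.3% of the tested genes. limma-voom called 0 members as well, with 4 higher and 1 lower at its unadjusted p under 0.05. Of all tested genes 23.8% had an unadjusted limma-voom p under 0.05 in either direction.

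**Figure D1:**
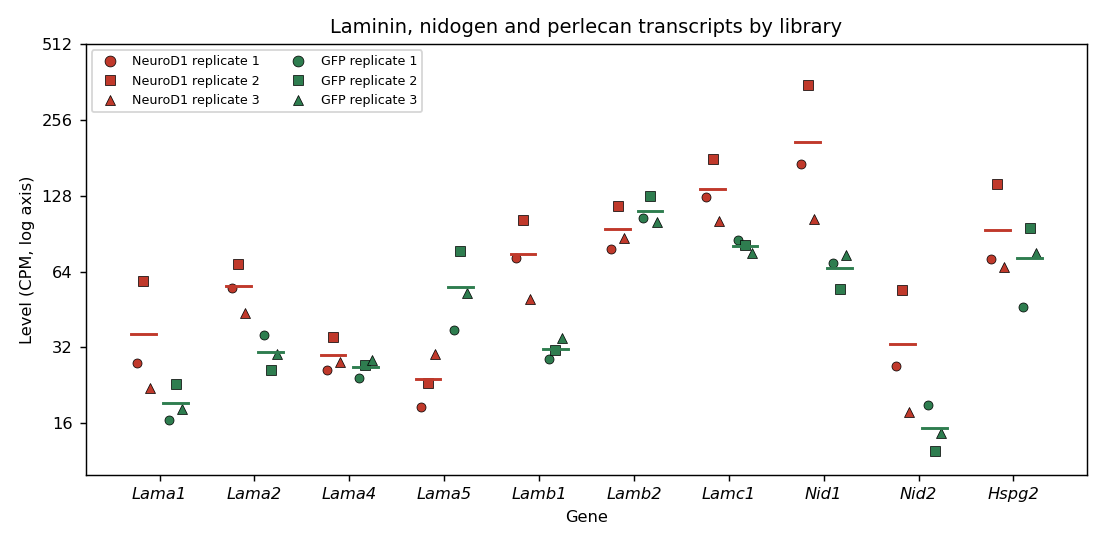
Level of each member in CPM on a log axis, with a point for each library (NeuroD1 left and red, GFP right and green) and a bar at the arithmetic mean of each group. The NeuroD1 points lie above all GFP points for Lama2, Lamb1, Lamc1 and Nid1 and below them for Lama5, and NeuroD1 replicate 2 (square) is the highest point of its group for every member except Lama5.

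Nid1, which had the largest fold difference of the 10 members, encodes a nidogen found in nearly all basement membranes. Nid1 (ENSMUSG00000005397, chromosome 13, 13437551 to 13512269, plus strand, GRCm38) had 2277, 3630 and 1157 counts in NeuroD1 replicates 1, 2 and 3, or 171.5, 351.3 and 103.8 CPM. In the GFP replicates it had 685, 407 and 685 counts, or 69.4, 54.4 and 74.4 CPM. All NeuroD1 libraries were above all GFP libraries, and NeuroD1 replicate 2 was the highest. The log2 fold change was 1.66 (SE 0.42), a 3.16-fold difference (edgeR unadjusted p = 0.00372, adjusted p = 0.136). Without NeuroD1 replicate 2 it was 2.09-fold. Nid2 (chromosome 14, 19751265 to 19811787, plus strand), whose product has the same domain layout, had 27.0, 54.0 and 17.7 CPM with NeuroD1 and 18.9, 12.4 and 14.7 CPM with GFP. The groups overlapped, because NeuroD1 replicate 3 was below GFP replicate 1. Its difference was 2.14-fold (log2 fold change 1.10, SE 0.40; edgeR unadjusted p = 0.0243, adjusted p = 0.167), and 1.46-fold without NeuroD1 replicate 2. In GENCODE M21, 437 exonic bases of Nid2 lie opposite exons of Rtraf and 143 of Nid1 opposite the antisense gene Gm48682, and 631 of Lama2 opposite the antisense gene Gm48084, while the strand setting of the counting is not given in the sources used here. Whether reads from those bases were assigned by strand is therefore not known.

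Among the laminin beta chains, Lamb1 was higher with NeuroD1 at an unadjusted p under 0.05 and Lamb2 did not pass that threshold. Lamb1 (chromosome 12, 31265234 to 31329644, plus strand) had 963, 1059 and 553 counts, or 72.5, 102.5 and 49.6 CPM, in the NeuroD1 replicates. With GFP it had 285, 234 and 320 counts, or 28.9, 31.3 and 34.8 CPM. The groups were apart, with GFP libraries close together and NeuroD1 libraries spread. The difference was 2.37-fold (log2 fold change 1.24, SE 0.28; edgeR unadjusted p = 0.00172, adjusted p = 0.136). Lamb2 (chromosome 9, 108479736 to 108490530, plus strand), the beta chain of mature vessel membranes, had 79.0, 117.0 and 86.9 CPM with NeuroD1 and 104.3, 127.7 and 100.5 CPM with GFP. The groups overlapped and the log2 fold change was -0.23 (SE 0.22; edgeR unadjusted p = 0.326).

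Lamc1 (chromosome 1, 153218922 to 153332786, minus strand) encodes the gamma chain of most vascular laminins. It had 126.5, 179.1 and 101.5 CPM with NeuroD1 and 85.1, 81.7 and 76.2 CPM with GFP. The lowest NeuroD1 library was above the highest GFP library. The difference was 1.68-fold (log2 fold change 0.74, SE 0.24; edgeR unadjusted p = 0.0151, adjusted p = 0.147).

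The alpha chains differed among themselves. Lama5 (chromosome 2, 180176373 to 180225859, minus strand) was the only member lower with NeuroD1 at an unadjusted p under 0.05. It had 246, 239 and 335 counts, or 18.5, 23.1 and 30.1 CPM, in the NeuroD1 replicates. In the GFP replicates it had 369, 580 and 485 counts, or 37.4, 77.5 and 52.7 CPM. Every NeuroD1 library was below every GFP library, although GFP replicate 2 was far above GFP replicate 1. Levels were 2.33-fold lower with NeuroD1 (log2 fold change -1.22, SE 0.31; edgeR unadjusted p = 0.00364, adjusted p = 0.136). Leaving out a library gave log2 fold changes from -1.47 (without GFP replicate 1) to -0.91 (without GFP replicate 2).

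Lama2 (chromosome 10, 26980036 to 27619758, minus strand), the alpha chain of the astrocyte-side membrane, had 55.1, 68.9 and 44.0 CPM with NeuroD1 and 35.7, 26.0 and 30.1 CPM with GFP. The groups did not overlap, and the difference was 1.83-fold (log2 fold change 0.87, SE 0.23; edgeR unadjusted p = 0.0051, adjusted p = 0.137). Lama1 (chromosome 17, 67697259 to 67822647, plus strand), found mainly in meningeal and larger-vessel membranes, had 27.7, 58.6 and 22.2 CPM with NeuroD1 and 16.5, 23.0 and 18.3 CPM with GFP. NeuroD1 replicate 3 lay just below GFP replicate 2, so the groups overlapped. The fitted difference of 1.88-fold (log2 fold change 0.91, SE 0.37; edgeR unadjusted p = 0.037, adjusted p = 0.188) was 1.30-fold without NeuroD1 replicate 2. Lama4 (chromosome 10, 38965515 to 39110188, plus strand), the other endothelial alpha chain, had 26.0, 35.2 and 28.1 CPM with NeuroD1 and 24.3, 27.2 and 28.6 CPM with GFP. These values interleaved, with a log2 fold change of 0.16 (SE 0.21; edgeR unadjusted p = 0.469), and -0.02 once length and GC content of transcripts were modelled.

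Hspg2 (chromosome 4, 137468769 to 137570630, plus strand) was spread widely in both groups. It had 71.7, 142.3 and 66.5 CPM with NeuroD1 and 46.2, 95.0 and 76.1 CPM with GFP. Replicate 2 was the highest library in each group and the groups overlapped. The log2 fold change was 0.37 (SE 0.37; edgeR unadjusted p = 0.34), and -0.06 without NeuroD1 replicate 2.

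**Figure D2:**
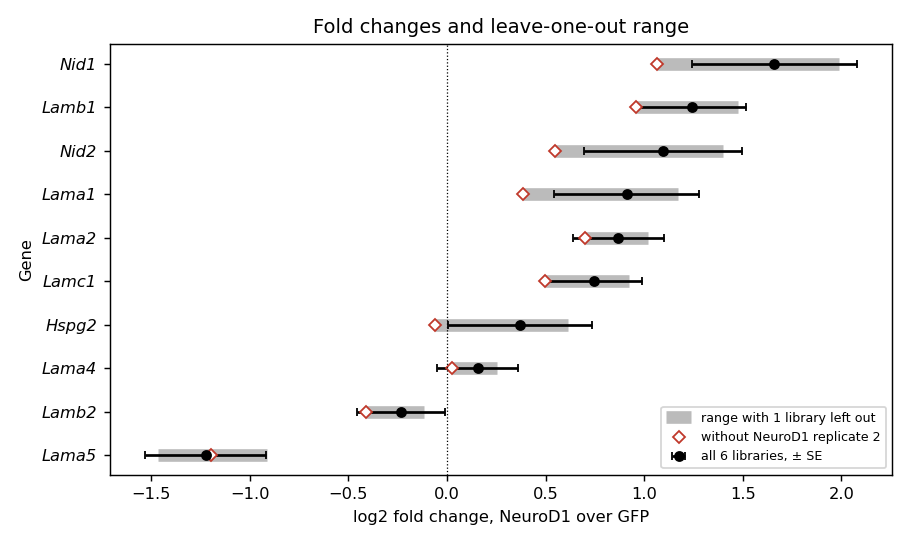
Log2 fold change (NeuroD1 over GFP) of each member with all 6 libraries (black, ± SE), the range when any 1 library is left out (grey) and the value without NeuroD1 replicate 2 (open diamond). Leaving out that library gave the lowest value for each member except Lama5, and the range crossed 0 for Hspg2.

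Leaving out NeuroD1 replicate 2 gave the lowest log2 fold change of all leave-outs for 9 of the 10 members, Lama5 being the exception. Without it, Nid1, Lamb1, Lamc1 and Lama2 were still higher at an unadjusted edgeR p under 0.05, and Lama1 and Nid2 were not. Without GFP replicate 3 only Nid1, Lamb1 and Lama2 were. Of all tested genes, 24.1% had an unadjusted edgeR p under 0.05 in either direction without NeuroD1 replicate 2. Without GFP replicate 3 the share was 12.5%. Lama5 was lower at that p whichever library was left out. By DESeq2, run as an alternative, 4 members passed an adjusted p of 0.05: Lamb1 (0.00419), Nid1 (0.00494) and Lama2 (0.0217) on the higher side and Lama5 (0.0138) on the lower. Over all alternatives the adjusted p ran up to 0.412 for each of these 4. DESeq2 called 5.04% of the genes it tested higher and 3.87% lower.

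To compare levels between genes, CPM were divided by the length of the longest annotated transcript in kilobases. With NeuroD1, Nid1 was the most abundant per kilobase (34.3 ± 21.0, SD, n = 3), followed by Lamc1 (17.8 ± 5.20), Lamb2 (16.8 ± 3.56) and Lamb1 (12.9 ± 4.58). Nid2 (6.75 ± 3.87), Hspg2 (6.59 ± 2.99), Lama2 (5.82 ± 1.30), Lama4 (4.92 ± 0.80) and Lama1 (3.80 ± 2.06) followed, and Lama5 was last (2.10 ± 0.51). In that order each gene's mean ± SD range overlapped that of its neighbour. These ranges leave out that the genes were measured in the same libraries. Within libraries, Nid1 was above Lamc1, Lamb2 above Lamb1 and Lamb1 above Nid2 in every NeuroD1 replicate. The other neighbours did not keep the same order in every NeuroD1 replicate, so their order is not resolved by these libraries. All these orders, and those with GFP below, rest on the longest transcript. The union of annotated exons is much longer for Lamb1 (9917 against 5784 bases), Lama2 (16338 against 9614) and Lama4 (12068 against 6046). By that length the place of these genes can differ, also that of Lamb1 above Nid2.

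With GFP, Lamb2 was the most abundant (19.7 ± 2.62), ahead of Nid1 (10.8 ± 1.71) and Lamc1 (10.6 ± 0.59), and then Lamb1 (5.47 ± 0.51), Hspg2 (5.10 ± 1.73), Lama5 (4.90 ± 1.78), Lama4 (4.42 ± 0.36), Lama2 (3.19 ± 0.51), Nid2 (3.15 ± 0.68) and Lama1 (2.02 ± 0.35). The mean ± SD ranges were apart between Lamb2 and Nid1, Lamc1 and Lamb1, Lama4 and Lama2, and Nid2 and Lama1, and overlapped between the other neighbours.

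Shares within the alpha chains do not depend on library scaling. As a share of the counts per kilobase of Lama1, Lama2, Lama4 and Lama5 together, Lama5 took 11.2, 9.59 and 18.6% in the NeuroD1 replicates and 25.7, 41.4 and 32.1% in the GFP replicates. Lama2 took 39.3, 33.8 and 32.2% with NeuroD1 and 29.2, 16.5 and 21.7% with GFP. Lama1 took 20.0, 29.1 and 16.4% with NeuroD1 and 13.6, 14.7 and 13.3% with GFP. For these 3 chains the groups did not overlap, while the Lama4 share averaged 29.9 ± 2.64% with NeuroD1 and 30.6 ± 2.81% with GFP (SD, n = 3 each). The shares of a library sum to 100%, so they are not separate observations.

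**Figure D3:**
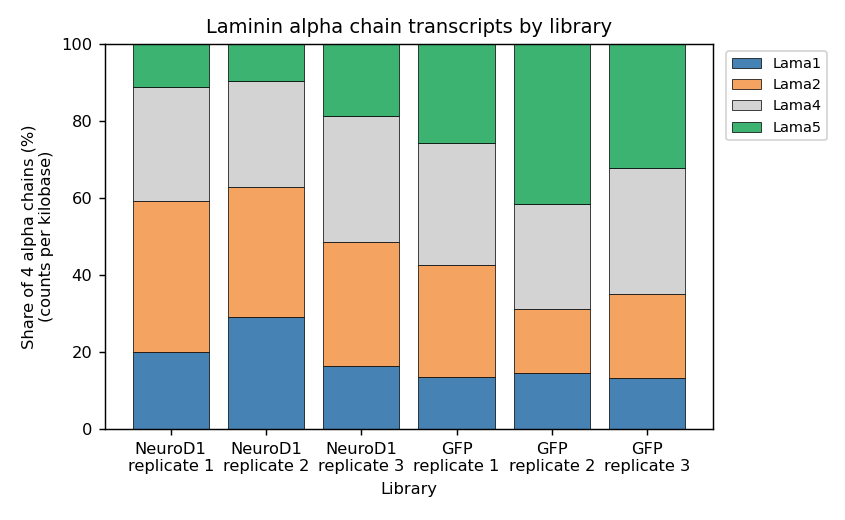
Share of each laminin alpha chain in the summed counts per kilobase of Lama1, Lama2, Lama4 and Lama5, with a stacked bar for each library. The Lama5 part is 9.59 to 18.6% in the NeuroD1 bars and 25.7 to 41.4% in the GFP bars, and the Lama4 part is similar in all 6.

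Ratios between chains in the same library were compared for 6 pairs that share members and are not independent. The count ratio of Lamb1 to Lamb2 was 0.918, 0.876 and 0.571 in the NeuroD1 replicates and 0.277, 0.245 and 0.346 in the GFP replicates, so that the mean log2 ratio differed by 1.43, or 2.70-fold. The Lama5 to Lamc1 ratio was 0.147, 0.129 and 0.296 with NeuroD1 and 0.439, 0.948 and 0.692 with GFP, which was 3.72-fold lower with NeuroD1. The Lama2 to Lama5 ratio was 2.97, 2.98 and 1.46 with NeuroD1 and 0.957, 0.336 and 0.571 with GFP, 4.13-fold higher with NeuroD1. The Lama4 to Lama5 ratio was 2.52-fold higher with NeuroD1, and the Nid1 to Nid2 and Lamb1 to Lamc1 ratios were 1.44-fold and 1.39-fold higher. In each of the 6 pairs the groups were apart and the two-sided exact permutation p was 0.1, the smallest that 3 against 3 can give (0.1 after Benjamini-Hochberg adjustment over the 6). This permutation test therefore cannot reach 0.05 with 3 libraries in each group. For Lama2 to Lama5 and Lama5 to Lamc1 the separation was fixed in advance. Lama2 and Lamc1 were apart on the higher side in CPM and Lama5 on the lower. The ratios restate differences of the single genes, and the share of other gene pairs that are apart was not computed.

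**Figure D4:**
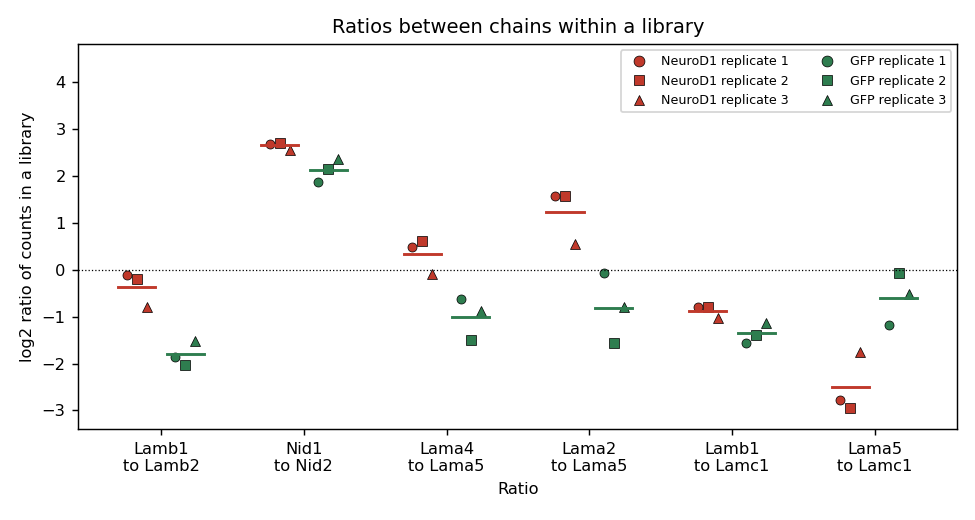
Log2 ratio of the counts of paired genes within each library (NeuroD1 left and red, GFP right and green), with bars at group means. NeuroD1 libraries lie above GFP libraries for 5 ratios and below them for Lama5 to Lamc1.

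In bulk tissue, fewer cells of a type and less RNA per cell cannot be told apart, and markers of several cell types differed between the groups. Endothelial markers summed to 395.4 to 714.4 CPM with NeuroD1 and 853.4 to 1303.0 CPM with GFP, with 9 of 12 markers lower at an unadjusted edgeR p under 0.05 and none higher. Pericyte and smooth muscle markers summed to 333.2 to 601.9 CPM with NeuroD1 and 482.6 to 632.8 CPM with GFP (6 of 11 lower, 1 higher). Fibroblast markers summed to 1748 to 8565 CPM with NeuroD1 and 1140 to 2085 CPM with GFP (5 of 10 tested higher, none lower), with Dpt, a collagen-binding matrix protein gene, at 0 to 7 counts per library. Macrophage and microglia markers summed to 4531 to 11889.5 CPM with NeuroD1 and 2713 to 4140 CPM with GFP (7 of 11 higher, none lower). Astrocyte markers summed to 5624 to 10289 CPM with NeuroD1 and 9543 to 15736 CPM with GFP (3 of 9 lower, none higher). Oligodendrocyte markers summed to 6677 to 9183 CPM with NeuroD1 and 10528 to 20613 CPM with GFP (3 of 6 lower), and choroid plexus markers to 7.83 to 79.0 CPM with NeuroD1 and 35.2 to 812.1 CPM with GFP (3 of 5 tested lower). Of 8 neuron markers 1 was higher and none lower. Over all tested genes, 12.5% were higher and 11.5% lower at the same threshold. The part of cell composition in the members' differences was not tested.

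As a description chosen after the values were seen, members were set against these sums in the same library. Lama5 came to 4.69, 4.96 and 4.21% of the endothelial sum in the NeuroD1 replicates and 4.32, 5.95 and 6.18% in the GFP replicates, so the groups overlapped on that scale. Lama4 came to 6.57, 7.56 and 3.93% with NeuroD1 and 2.81, 2.09 and 3.35% with GFP, apart on the higher side. Every other member except Lama5 was also apart on the higher side against the endothelial sum. That sum was itself apart on the lower side with NeuroD1, which raises any gene on this scale in the NeuroD1 libraries. Lama1, Lama4, Lamb2, Nid2 and Hspg2 overlapped in CPM. The share of all tested genes apart on this scale was not computed, so being apart here is not a trait of the members. Against the fibroblast sum, Nid1 came to 4.41, 4.10 and 5.94% with NeuroD1 and 6.08, 4.60 and 3.57% with GFP, and Lamb1 to 1.86, 1.20 and 2.84% with NeuroD1 and 2.53, 2.65 and 1.67% with GFP. Both overlapped. Lama5 against the fibroblast sum was apart on the lower side, at 0.270 to 1.72% with NeuroD1 and 2.53 to 6.56% with GFP. Overlap was not particular to these sums. Against the macrophage and microglia sum, Lamb1 came to 0.862 to 1.10% with NeuroD1 and 0.755 to 1.06% with GFP, and Nid1 to 2.20 to 2.95% with NeuroD1 and 1.31 to 2.56% with GFP, so both overlapped there too. Lama5 also overlapped against the astrocyte sum, at 0.197 to 0.411% with NeuroD1 and 0.237 to 0.630% with GFP.

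**Figure D5:**
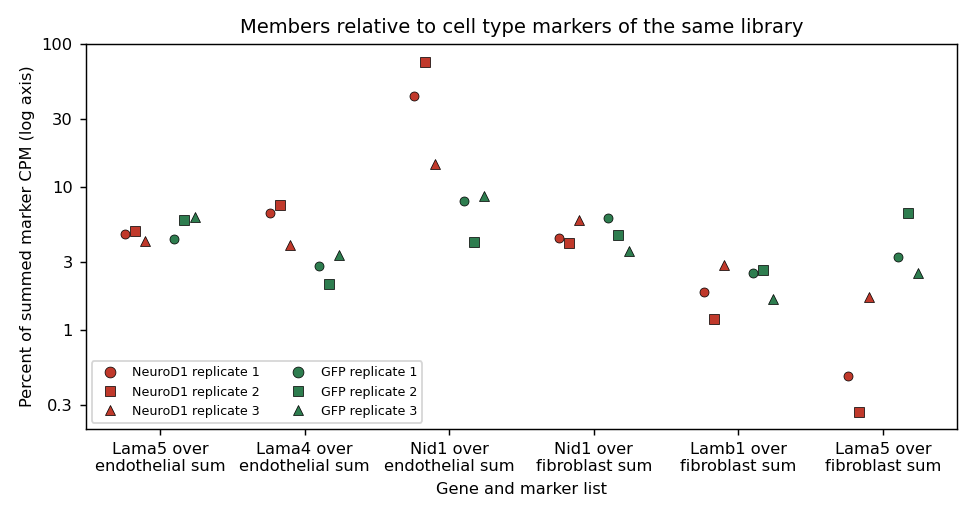
Level of a member as a percent of the summed CPM of endothelial or fibroblast markers in the same library, on a log axis (NeuroD1 left and red, GFP right and green). Groups overlap for Lama5 over endothelial markers and for Nid1 and Lamb1 over fibroblast markers, and are apart in the other 3 columns.

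Promoter windows of the members with the widest differences are shown because these genes had opposite directions. RefSeq (GRCm38.p6) gave a window from 250 bases before to 50 after the annotated start for 6 of the 10 members. Capitals mark E-boxes (CANNTG), the motif class that NeuroD1 and other basic helix-loop-helix factors bind, found in either orientation since it reads alike on both strands.
Nid1 (chr13:13437352-13437651, plus strand): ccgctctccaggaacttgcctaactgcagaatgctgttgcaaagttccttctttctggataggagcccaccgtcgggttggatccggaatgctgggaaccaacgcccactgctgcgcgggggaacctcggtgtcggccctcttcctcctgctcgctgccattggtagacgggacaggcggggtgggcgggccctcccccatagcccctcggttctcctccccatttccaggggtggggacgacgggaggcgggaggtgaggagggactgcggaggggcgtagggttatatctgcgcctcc
Lamb1 (chr12:31265043-31265342, plus strand): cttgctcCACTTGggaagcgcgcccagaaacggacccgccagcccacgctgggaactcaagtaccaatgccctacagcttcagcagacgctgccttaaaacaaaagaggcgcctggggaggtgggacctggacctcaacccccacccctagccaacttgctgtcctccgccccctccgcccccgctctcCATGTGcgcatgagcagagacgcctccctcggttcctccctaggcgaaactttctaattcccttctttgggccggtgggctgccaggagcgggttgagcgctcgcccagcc
Lama5 (chr2:180225810-180226109, minus strand): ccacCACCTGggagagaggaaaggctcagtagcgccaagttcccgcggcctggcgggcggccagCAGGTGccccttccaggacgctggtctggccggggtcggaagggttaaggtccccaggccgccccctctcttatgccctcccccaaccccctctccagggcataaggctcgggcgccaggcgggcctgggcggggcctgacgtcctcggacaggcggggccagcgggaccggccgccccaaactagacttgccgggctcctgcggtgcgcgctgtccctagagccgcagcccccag
The Nid1 window held 0 E-boxes, and the Lamb1 and Lama5 windows held 2 each. Of 32851 windows in the table, 72.3% held at least 1. The form CAGATG (either strand, included in CANNTG) was in 0 of these 3 windows, in 1 copy each in those of Lama2 and Lamb2, and in 17.2% of all windows. The GC box GGGCGG (either strand) was present in 1 copy in Nid1, 2 in Lamb1 and 4 in Lama5, and in 35.7% of all windows. A match is a description of the letters only.

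Companion genes of the pathway were read from fixed lists, against a background of 12.5% of all tested genes higher and 11.5% lower at an unadjusted edgeR p under 0.05 and a median log2 fold change of 0.02. None passed the adjusted threshold in any list. Of the 4 remaining laminin chains, 1 was higher and none lower. It was Lamc3, the gamma chain linked to cortical surface formation, at 33.6 ± 9.83 CPM with NeuroD1 and 17.7 ± 5.57 CPM with GFP (SD, n = 3 each; edgeR unadjusted p = 0.0151). Without GFP replicate 2, and likewise without GFP replicate 3, 0 of these chains had an unadjusted p under 0.05, and without NeuroD1 replicate 2 it was 2. Lamb3, a chain of epithelial laminin, had only 6 to 16 counts per library and a log2 fold change of -0.83 (SE 0.50; edgeR unadjusted p = 0.131).

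Other basement membrane components were on both sides, with 6 of 24 tested higher and 4 lower (median log2 fold change 0.06). Col4a5, a collagen IV chain, was 3.22-fold higher at 72.0 ± 32.1 CPM with NeuroD1 and 22.4 ± 4.32 CPM with GFP (SD, n = 3 each; edgeR unadjusted p = 0.000997, adjusted p = 0.136). Its partner chain gene Col4a6 was 1.68-fold higher (edgeR unadjusted p = 0.0104). Pxdn, the peroxidase that cross-links collagen IV, was lower at 69.5 ± 11.6 CPM with NeuroD1 and 133.0 ± 42.7 CPM with GFP (edgeR unadjusted p = 0.0101).

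Laminin receptors were also divided, with 3 of 10 tested higher and 3 lower. Bcam, a receptor for the Lama5-encoded chain, was lower at 23.3 ± 7.05 CPM with NeuroD1 and 49.2 ± 9.47 CPM with GFP (SD, n = 3 each; edgeR unadjusted p = 0.00394, adjusted p = 0.136). The integrin genes Itga6 and Itgb1, whose products pair as a laminin receptor, were 1.91-fold and 1.78-fold higher (edgeR unadjusted p = 0.00732 and 0.0149). Without GFP replicate 2, 3 receptors in all had an unadjusted p under 0.05. Among enzymes that glycosylate dystroglycan for laminin binding, 0 of 12 were higher and 0 lower. At an unadjusted p under 0.05 the count in either direction was 3 without NeuroD1 replicate 2, 1 without GFP replicate 1 and 1 by DESeq2.

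Heparan sulfate enzymes, which build and trim the chains perlecan carries, had 5 of 15 higher and 1 lower (median log2 fold change 0.35). The extracellular sulfatase genes Sulf1 and Sulf2 were 1.76-fold and 1.77-fold higher (edgeR unadjusted p = 0.00563 and 0.0055), and B3gat3, which completes the linker to the core protein, had a log2 fold change of -0.63 (SE 0.20; unadjusted p = 0.0137). The count of either direction was 2 without NeuroD1 replicate 1 and 3 without GFP replicate 2. Among enzymes that degrade basement membranes, 7 of 13 tested were higher and 1 lower (median log2 fold change 0.996). The heparanase gene Hpse had 83.3 ± 48.2 CPM with NeuroD1 and 23.1 ± 8.75 CPM with GFP (SD, n = 3 each; edgeR unadjusted p = 0.00349). Plau, the urokinase gene, was 4.52-fold higher and Mmp14, a membrane-bound metalloproteinase gene, 2.72-fold higher (edgeR unadjusted p = 0.00484 and 0.00528). These enzymes are also made by macrophages and fibroblasts, whose summed markers are given above, and the part of those cells was not tested. For the degrading enzymes the count in either direction was 8 with all libraries and 4 without GFP replicate 1. It was 5 without GFP replicate 2, NeuroD1 replicate 1 or NeuroD1 replicate 2.

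For Nid1, Lamb1, Lama5 and Hspg2, the tested genes with the most similar profile were taken by root mean square distance between log2 CPM profiles centred over the 6 libraries. Lama5 was nearest to Sox18 (distance 0.05), an endothelial transcription factor gene, then Tm6sf2 (0.08) and Zfp783 (0.09). Lamb1 was nearest to S1pr2 (0.08), Ptprc (0.09), the pan-leukocyte antigen gene, and Pcna (0.10), a DNA replication gene. Nid1 was nearest to Ly9 (0.09), Mdfic (0.10) and Rbl1 (0.11), and Hspg2 to Lgals9 (0.03), Cmtm7 (0.04) and Atp6v0e (0.06). Among the members, the closest pair was Lama2 and Lamc1 (0.15). These are descriptions over 6 libraries, chosen from 14852 genes.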

How the data were processed

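The authors deposited raw read counts for each gene symbol. They were produced by featureCounts with an mm10 annotation file, per the file headers. The submitters' processing notes also list HISAT2 2.0.1, DESeq2 1.16.1 and GRCm38, with no role for any of them. Annotation release, strand setting and the handling of multi-mapping reads: not given in the sources used here. Columns were matched to samples by the sample description in the labels.

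The test was edgeR 4.0.16's quasi-likelihood F-test (R 4.3.3) with TMM scaling and treatment as the only term, on the 14852 of 24421 genes that filterByExpr kept (minimum count 10, minimum total 15). Benjamini-Hochberg adjustment covered every tested gene, at a threshold of 0.05, and standard errors came from the F statistic. A single count was worth 0.0753 to 0.134 CPM. Library pairs of the same group gave chi-squares per gene between 35.4 and 133, so none was treated as a duplicate. The closest pair of all was across groups, NeuroD1 replicate 3 with GFP replicate 1 (30.4). NeuroD1 replicate 3 was also closer to GFP replicate 3 (36.7) than to NeuroD1 replicates 1 (39.9) and 2 (133). Positions and lengths came from GENCODE M21 on GRCm38, and chain ratios were compared by two-sided exact permutation tests on the counts. The edgeR test was tested on simulated data.

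The members and lists were chosen with earlier results of these data known. Named genes were the members, up to 3 genes with the smallest p of each pathway list, and the 3 nearest profiles of Nid1, Lamb1, Lama5 and Hspg2, computed on log2(CPM + 0.5). Some genes that this rule names are not reported here. Of the markers, Snap25, Slc17a7 and Dpt were named outside the rule, after their values were seen. The alternatives were DESeq2 1.42.0, limma-voom (limma 3.58.1), DESeq2 size factors, upper quartile scaling, no filter or at least 5 CPM in 3 libraries, a replicate block, thinned counts, length and GC offsets (14769 tested genes had a length), removal of Rn45s, and leaving out each library.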

Additional observations from a re-analysis of the deposited data

How the results depend on the processing

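With DESeq2, 4 of the 10 members and 1366 of 15332 genes passed an adjusted p of 0.05 (5.04% higher and 3.87% lower). Of the listed genes, 4 of 25 other basement membrane components and 4 of 11 laminin receptors passed. So did 2 of 15 heparan sulfate enzymes and 6 of 15 degrading enzymes. With edgeR 0 passed. With the replicate block, 1 member (Lama5) and 479 of 14852 genes passed. Same-numbered libraries had correlations of deviations of 0.56, 0.39 and 0.03, against -0.49 to 0.14 for the other combinations. Library 3 of neither group correlated best with its own number. With 3 libraries in each group, these correlations cannot decide whether the numbers pair the samples. Leaving out a library gave 3 to 6 members higher at an unadjusted p under 0.05 and 0 to 1 genes in all after adjustment. The gene called was in the fit without NeuroD1 replicate 2. Across the 16 alternatives every member kept the sign of its fold change except Lama4 (length and GC offsets) and Hspg2 (without NeuroD1 replicate 2), neither of them called. With the union of exons as length, alpha chain shares with NeuroD1 and GFP were 30.5 and 18.1% for Lama1, 21.4 and 20.4% for Lama4, and 18.7 and 43.7% for Lama5, and Lama2 took 29.5% with NeuroD1, which follows from the other lengths. The ratios kept their direction with 0.5 counts added and with any 1 library left out. At the depth here the smallest member count was 93, for Nid2 in GFP replicate 2.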
